A study of Mus musculus with 2 samples.

Results

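This account concerns 51 protein-coding genes of the core splicing machinery of the mouse, in pyramidal neurons of layer 5 of the adult cortex. They were taken by symbol: every protein-coding gene whose symbol starts with Srsf (11 genes), Hnrnp (20 genes), Sf3 (9 genes) or Snrp (11 genes), with Snrpn left out. The tables list 43346 genes in all, of which 21474 were annotated as protein-coding. The choice used no measured value. RNA longer than 200 nt was copied by a Smart-seq type protocol from pools of 50 laser-captured neurons of wild-type male mice aged 8 months, with synthetic spike-in RNA added. There was 1 group of 2 libraries, labelled biological replicate 1 and biological replicate 2, with no treatment, no mutant allele and no second condition, and an antibody tag reads Control in each. The strain is given as B6NCrl in one field and as C57Bl5 and C57Bl6 in others. The labels give both libraries 1 donor identifier and leave unsaid whether separate animals were used, and differences between the libraries may be technical.

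Introns are removed from pre-mRNA by the spliceosome, whose small nuclear ribonucleoproteins recognise the splice sites and the branch point. The Snrp genes encode the Sm proteins that ring the small nuclear RNAs and the A, B and C proteins of the U1 and U2 particles, and the Sf3 genes encode the SF3a and SF3b subunits with which the U2 particle holds the branch point. SR proteins, encoded by the Srsf genes, bind exons and recruit the spliceosome, whereas hnRNPs coat pre-mRNA and in many places oppose exon inclusion. Many of these genes are known to limit their own protein by making transcripts with a premature stop codon, which nonsense-mediated decay degrades in the cytoplasm, or transcripts that keep an intron and tend to stay in the nucleus.

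Replicate 1 held 24171434 estimated reads and replicate 2 held 27946180, of which the spike-ins took 4.28% and 5.32%. The 51 genes held 0.605% of gene reads in replicate 1 and 0.555% in replicate 2, at 40.4 to 8655 and 46.5 to 10354 reads per gene. The libraries were not copies of each other, since the chi-square of their counts was 52.0 per degree of freedom over 17816 genes. No marker of the 7 cell type lists was without reads in either library. In TPM, a level scaled to depth and to transcript length, the 6 glutamatergic markers summed to 606 in replicate 1 and 784 in replicate 2, and the 6 layer 5 markers to 2300 and 4756, with 3 of these 6 at least 2-fold lower in replicate 1. Pcp4 alone gave 2134 and 4468 TPM of the layer 5 sums, while Bcl11b and Crym were higher in replicate 1. Markers of other cells were present as well. The 8 interneuron markers summed to 3879 TPM in replicate 1 and 1499 in replicate 2, and the 8 microglial markers to 149 and 57.9 TPM. Sst alone gave 2506 and 844 TPM, and Vip had 4365 reads in replicate 1 and 1 in replicate 2. Of those at a mean of at least 10 CPM, 4 of 7 interneuron and 4 of 5 microglial markers were at least 2-fold higher in replicate 1, and 0 were 2-fold lower. The sums were 560 and 697 TPM for oligodendrocytes, 624 and 733 TPM for astrocytes and 107 and 93.6 TPM for endothelial cells. What part of the values below came from such cells was not tested. In pools of cells, fewer cells of a type and less RNA per cell cannot be told apart.

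Every splicing factor gene was detected in every library. All 51 reached 1 TPM in both libraries, against 52.2% of protein-coding genes, and 45 reached 10 TPM in both, against 28.1%. Their median level was 62.0 TPM in replicate 1 and 62.1 in replicate 2, whereas the 11211 protein-coding genes detected in both libraries had medians of 13.5 TPM in each. Summed, the 51 genes made up 4071 TPM in replicate 1 and 3766 in replicate 2. The Hnrnp genes contributed 1394 and 1327 TPM, the Snrp genes 1201 and 1061 TPM, the Srsf genes 1056 and 1015 TPM and the Sf3 genes 420 and 363 TPM. Within each family the genes were far apart, and the means over the libraries ran from 3.84 TPM for Sf3a2 to 236 TPM for Srsf5.

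**Figure D1:**
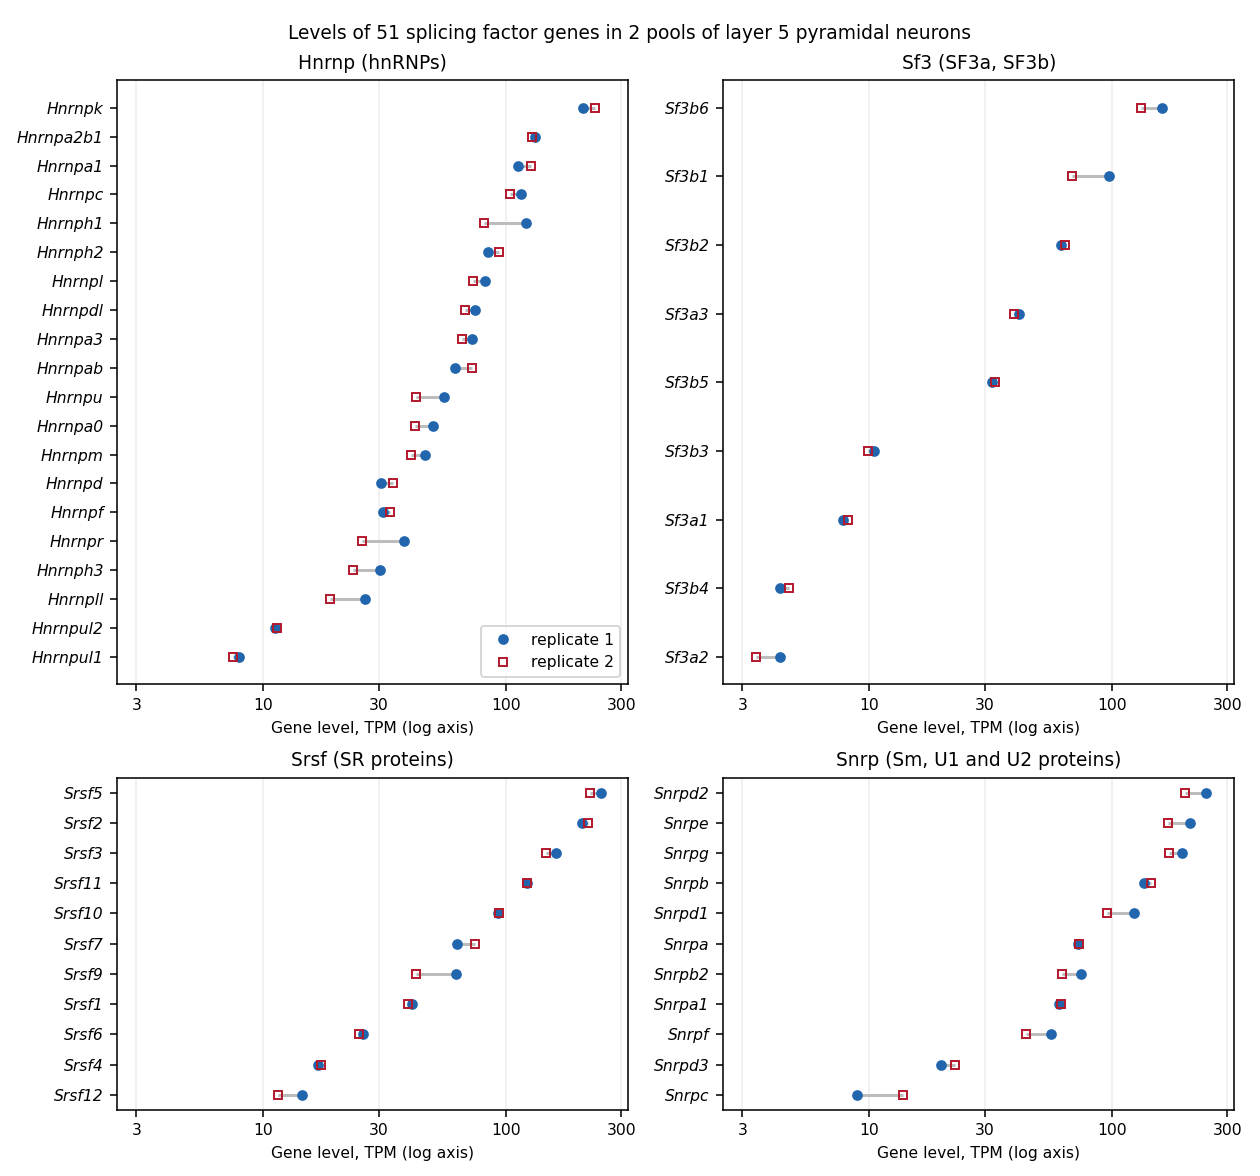
Gene levels in TPM on a log axis for the 51 genes, by family, with replicate 1 as filled circles, replicate 2 as open squares and a grey line between them. Genes are ordered by their mean, and in most genes the symbols of the libraries lie close together beside the range of means, from 3.84 TPM for Sf3a2 to 236 TPM for Srsf5.

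The highest levels of the Snrp family were those of Sm ring proteins. Its median was 74.6 TPM in replicate 1 and 73.6 in replicate 2. Snrpd2, an Sm protein, had 245 TPM in replicate 1 and 200.1 in replicate 2 (222 ± 31.4, SD, n = 2). Other Sm proteins followed, Snrpe at 210 and 170 TPM (190.0 ± 27.6) and Snrpg at 195 and 172 TPM (183 ± 16.4). The Sm proteins enter the ring in equal number, but the transcript levels of their genes were not equal. Snrpd3 stood at 19.8 and 22.6 TPM (21.2 ± 2.01) and Snrpf at 56.1 and 44.4 TPM (50.3 ± 8.29), and both were picked as low genes of the family by these means. The lowest gene of the family was Snrpc, which encodes the U1 protein that helps to hold the 5′ splice site, at 8.88 and 13.8 TPM (11.3 ± 3.45).

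The Sf3 genes had the lowest median of the families, 32.2 TPM in replicate 1 and 33.0 in replicate 2. Sf3b6, whose protein lies next to the branch point adenosine, stood at 161 and 132 TPM (146 ± 20.3, SD, n = 2). Sf3b1, the large scaffold of SF3b, stood at 97.2 and 68.4 TPM (82.8 ± 20.3), and Sf3b2 at 62.0 and 64.4 TPM (63.2 ± 1.73). At the other end were Sf3a1 at 7.78 and 8.20 TPM (7.99 ± 0.297), Sf3b4 at 4.29 and 4.69 TPM (4.49 ± 0.283) and Sf3a2 at 4.28 and 3.40 TPM (3.84 ± 0.622). The subunits of this complex thus lay up to 38.1-fold apart by the means of Sf3b6 and Sf3a2, its highest and lowest genes, which were picked by these same means. Sf3a2 rested on 40.4 and 46.5 reads, the fewest of any of the 51 genes.

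Among the SR protein genes, with medians of 63.1 and 74.5 TPM, Srsf5 stood at 248 and 223 TPM (236 ± 18.1, SD, n = 2). Srsf2, an SR protein long described as staying in the nucleus, stood at 207 and 218 TPM (212 ± 7.53). Srsf3, the smallest SR protein, stood at 161 and 147 TPM (154 ± 10.4). The lowest were Srsf6 at 25.8 and 24.8 TPM (25.3 ± 0.679), Srsf4 at 16.9 and 17.4 TPM (17.1 ± 0.339) and Srsf12 at 14.5 and 11.5 TPM (13.0 ± 2.11). The upper 3 and these 3 genes were picked by their means in these libraries, so the gap between them is no test.

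The Hnrnp genes had medians of 58.6 and 54.1 TPM. Hnrnpk, which binds C-rich RNA through KH domains, stood at 208 and 233 TPM (220.3 ± 17.6, SD, n = 2). Hnrnpa2b1 and Hnrnpa1, classical A/B hnRNPs that bind exonic and intronic silencers, had 132 and 128 TPM (130.1 ± 3.20) for the first and 113 and 127 TPM (120.0 ± 10.3) for the second. Hnrnpll, a paralog of Hnrnpl best known for splicing of Cd45 in lymphocytes, stood at 26.4 and 18.9 TPM (22.6 ± 5.32). Lowest were the U-like genes Hnrnpul2 at 11.2 and 11.4 TPM (11.3 ± 0.099) and Hnrnpul1 at 7.95 and 7.54 TPM (7.75 ± 0.290), whereas Hnrnpu itself stood at 55.5 and 42.5 TPM.

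The pools differed little in these genes. The comparison used log2((CPM + 1)/(CPM + 1)) of replicate 1 over replicate 2, where CPM is the read count scaled to library size by TMM, for genes at a mean of at least 10 CPM. None of the 48 splicing factor genes with that depth differed 2-fold, where 4.46% of 9190 genes did, and none differed 1.5-fold, where 16.9% did. Abundant genes differed less often in general: at a mean of at least 50 CPM the shares over all genes were 2.33% and 9.79%, against 0 of 38 splicing factor genes for both. The median of the 48 genes was 0.10 on the log2 scale, against -0.03 over all genes. With 1 library on each side these differences have no replicate check, and no test was run, since 2 libraries cannot give an exact two-sided p below 0.5.

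**Figure D2:**
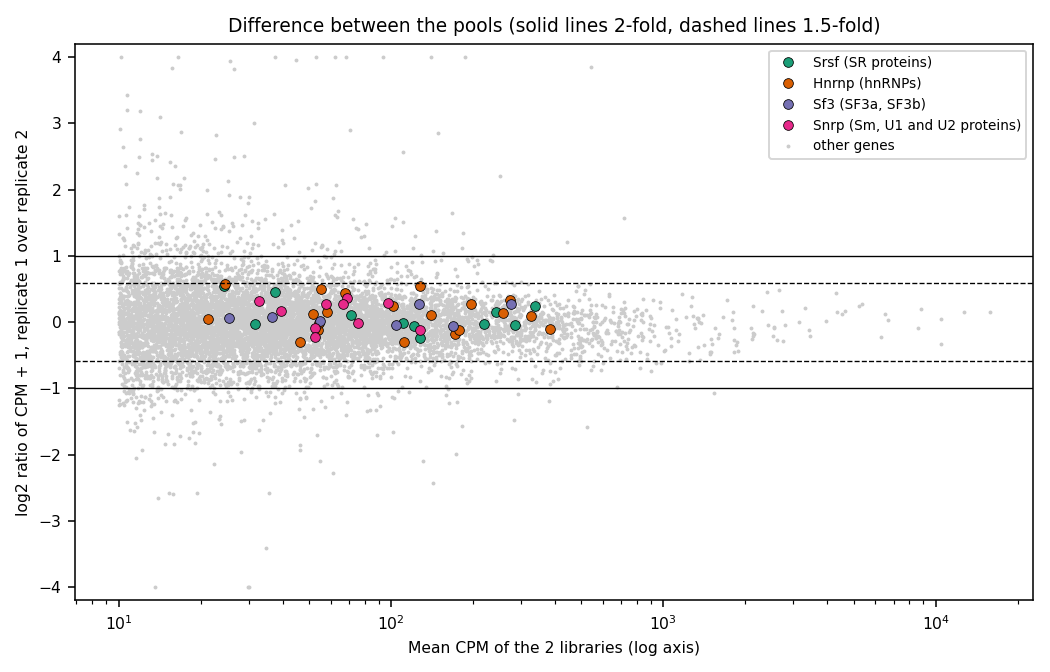
The log2 ratio of CPM + 1, replicate 1 over replicate 2, against the mean CPM of the libraries on a log axis, for 48 splicing factor genes in the colours of their families and the other genes at 10 CPM or more in grey, with values past 4 drawn at 4. All coloured points lie inside the dashed 1.5-fold lines, from -0.31 to 0.58.

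The largest difference was that of Hnrnph3, a member of the F/H group that binds G-rich RNA, with 693 reads in replicate 1 and 511 in replicate 2. Its log2 ratio was 0.58, just under the 1.5-fold limit of 0.585, and its ratio of CPM without a pseudocount was 1.52 with a 95% exact interval of 1.35 to 1.70, which covers counting error only. Hnrnph1 of the same group had 3553 and 2721 reads and a log2 ratio of 0.54, whereas Hnrnph2 and Hnrnpf each lay at -0.12. Srsf12 lay at 0.54, Hnrnpll at 0.50, Srsf9 at 0.45 and Hnrnpr at 0.45. On the other side the lowest of the 48 genes was Hnrnpd at -0.31, and Snrpc, at a mean of 9.34 CPM and so not among the 48, also lay at -0.31. Of the 51 genes 30 were higher in replicate 1 and 21 in replicate 2. Scaling by spike-in totals in place of TMM raised the median log2 ratio of all genes by 0.35, and 17 of the 48 genes were then past 1.5-fold, against 27.0% of all genes. Genes named here beyond the highest and lowest of a family were chosen after their ratios were seen.

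Transcript shares, used here for replicate 1, showed how much of each gene's level lay on transcripts annotated as protein-coding. That class includes short forms, such as Hnrnpm-204 of 634 nt, and translation was not measured. For a gene, the share is the percent of its TPM assigned to transcripts of an annotated class, and it was read for the 46 genes at 10 TPM or more. Of the summed TPM of these 46 genes 79.0% lay on protein-coding transcripts, 4.24% on transcripts annotated as nonsense-mediated decay targets, 11.5% on retained-intron transcripts and the rest on other noncoding ones, whereas over all protein-coding genes at that level these shares were 86.9%, 2.61% and 5.45%. The 11 Srsf genes held 61.9% on coding, 7.78% on decay and 20.8% on retained-intron transcripts. In the 19 Hnrnp genes at that level the coding share was 80.0%, in the 6 Sf3 genes 82.2% and in the 10 Snrp genes 91.8%. These sums follow the most abundant genes, but the median coding share was also lower in the Srsf genes, at 66.8%, than in the Hnrnp genes at 94.96%, the Snrp genes at 98.7% and the Sf3 genes at 100%, beside 98.6% for all protein-coding genes at that level. No spread can be given, since these shares rest on 1 library. The annotation differs between the families, with a median of 5 transcripts per Srsf gene, 6.5 per Hnrnp gene and 2 per Sf3 or Snrp gene. A decay transcript is annotated for 7 of 11 Srsf, 7 of 20 Hnrnp, 1 of 9 Sf3 and 4 of 11 Snrp genes. Sf3b2, Sf3b3, Sf3b5 and Sf3b6 have 1 transcript each, which fixed the Sf3 median at 100%. What part of the family differences came from the annotation was not tested.

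**Figure D3:**
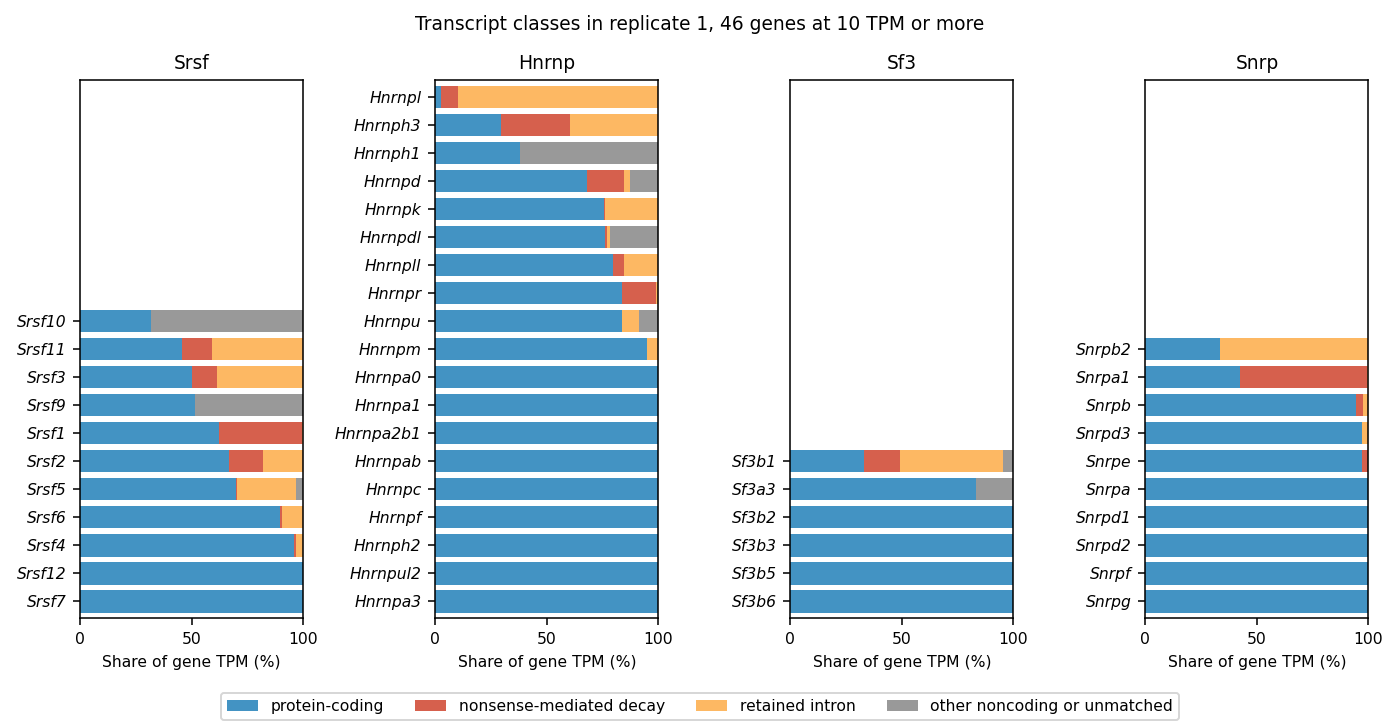
Share of each gene's TPM in replicate 1 on protein-coding, nonsense-mediated decay, retained-intron and other transcripts, as stacked horizontal bars for the 46 genes at 10 TPM or more, sorted within each family by coding share. Coding transcripts fill the bar in 2 of 11 Srsf, 9 of 19 Hnrnp, 4 of 6 Sf3 and 5 of 10 Snrp genes, and Hnrnpl, Hnrnph3, Sf3b1, Snrpb2 and Srsf10 have the shortest coding parts. A gene with only coding transcripts in the annotation fills its bar whatever its reads.

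Counted gene by gene, a decay share of at least 10% was found in 9 of the 46 genes, or 19.6%, against 7.47% of 6516 protein-coding genes at the same level. A retained-intron share of at least 10% was found in 10 genes, or 21.7%, against 17.6%. By share of estimated reads, counted after the data were seen, 5 genes passed 10% in decay transcripts, or 10.9%, against 6.58%. They were Hnrnpd, Hnrnph3, Hnrnpl, Snrpa1 and Srsf3. In retained-intron transcripts 9 genes passed 10% of reads, or 19.6%, against 13.3%. The annotation itself differs between the sets, since 37.3% of the 51 genes have an annotated decay transcript, against 14.2% of protein-coding genes, and 52.9% have a retained-intron one, against 28.8%. Among genes at 10 TPM with an annotated decay transcript, 9 of 19 splicing factor genes held at least 10% on such transcripts, against 33.0% of 1477 genes. Among those with an annotated retained-intron transcript the count was 10 of 23, against 38.8% of 2958 genes. All TPM lay on coding transcripts in 20 of the 46 genes, or 43.5%, against 42.0%. Snrpd2, Snrpg and Sf3b6 were among them, but each has a single quantified transcript, so that its share could only be 100%.

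In 8 genes the leading transcript was not a coding one, which is 17.4% of the 46, against 12.5% of protein-coding genes. They were Hnrnph1, Hnrnph3, Hnrnpl, Sf3b1, Snrpa1, Snrpb2, Srsf5 and Srsf10. In 6 of the 46 genes decay and retained-intron transcripts together held at least 50%, against 6.95%. Because TPM divides by length, a short transcript gets a larger share of TPM than of reads. In 7 of the 8 genes the leading noncoding transcript was shorter than the longest coding one, with medians of 886 and 2320 nt. This is general, since it held for 94.7% of the 815 protein-coding genes with a noncoding lead, with medians of 877 and 3802.5 nt. By share of estimated reads, 4 genes had a noncoding leading transcript, Hnrnph3, Hnrnpl, Snrpa1 and Srsf5, against 6.68% of protein-coding genes. By the same measure Hnrnph3, Hnrnpl and Snrpa1, 3 genes, held at least 50% on decay and retained-intron transcripts, against 4.37%. Snrpa1 was at the limit of both counts, at 50.6% and with 592 decay against 590 coding reads (posterior SD 36.0 each), so its place is not settled.

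**Figure D4:**
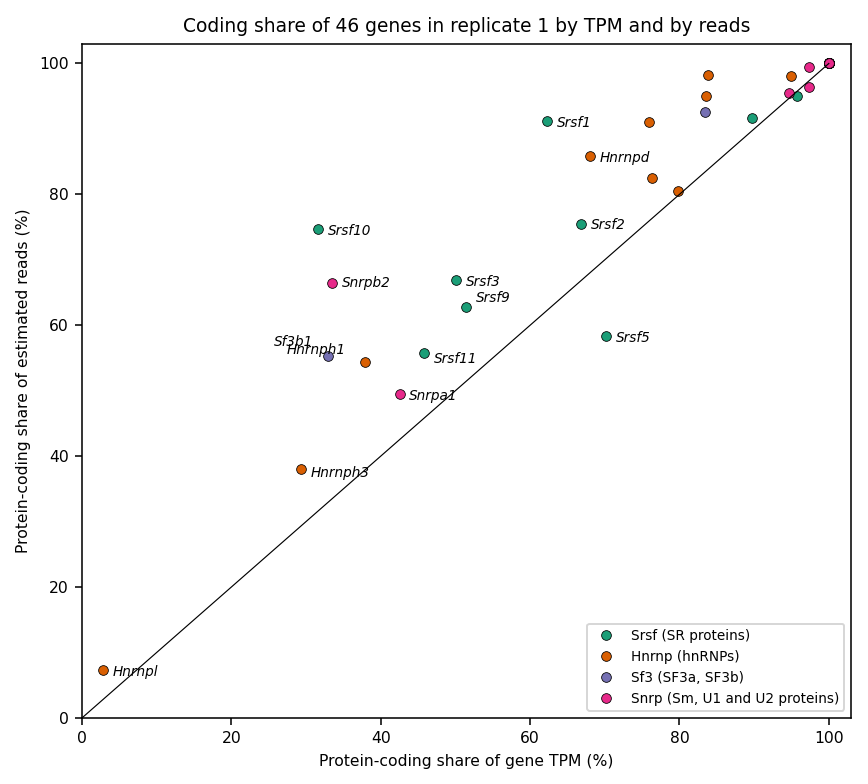
Protein-coding share of estimated reads against protein-coding share of TPM, both in percent, for 46 genes in replicate 1, with a line where they are equal and names for the genes lowest on the TPM scale. Most named genes lie above the line, as Srsf1 does at 62.3% of TPM and 91.2% of reads, while Hnrnpl stays at the bottom on each scale and Srsf5 lies below the line.

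Hnrnpl, whose protein binds CA-rich RNA, had the lowest coding share of the set. Its gene level was 82.3 TPM, rank 19 of 51, but its coding transcripts held 2.25 TPM, the lowest of the 51 genes. The retained-intron transcript Hnrnpl-210 held 84.7% of TPM and 63.3% of reads (799 estimated reads, posterior SD 13.2), and the coding share was 2.74% of TPM and 7.30% of reads. Hnrnpl-210 is 672 nt long, has 2 exons and lies at the 3′ end of the gene, 22 bases from its end. It keeps an intron of 118 bases between coding exons at chr7:28821274-28821391 (mm10, plus strand). Of the 672 bases of Hnrnpl-210, 121 lie outside the exons of coding transcripts. Its share thus rests in part on how reads in shared exons were divided. A second noncoding form, the decay transcript Hnrnpl-213, held 7.32% of TPM and 16.7% of reads and carries an exon of 70 bases of its own, at chr7:28817335-28817404, in which its stop codon lies, with 7 junctions after it. The retained intron is shown with its first and last pair of bases in capitals, and the reading frame of Hnrnpl-213 by the 30 bases that end in its stop codon, with the stop in capitals.
Hnrnpl-210 intron: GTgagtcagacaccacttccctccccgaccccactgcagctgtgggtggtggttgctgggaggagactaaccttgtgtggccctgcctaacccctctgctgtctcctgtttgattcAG
Hnrnpl-213 stop: tctttcagaactgtgctaactcactgtTGA
The mean transcript length of Hnrnpl, weighted by share, was 865 nt in replicate 1 and 892 nt in replicate 2, so that in replicate 2 as well the value lay far below the longest coding transcript of 2679 nt.

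Hnrnph3 divided its reads over several noncoding forms. The decay transcript Hnrnph3-204 held 31.3% of TPM and 41.8% of reads, retained-intron transcripts held 39.4% of TPM and 20.2% of reads, and coding transcripts held 29.3% of TPM and 38.0% of reads. The stop codon of Hnrnph3-204 lies in exon 3 of 9, and 6 junctions follow it. The exons of Rufy2, on the opposite strand and at 44.2 TPM, overlap those of Hnrnph3. Whether reads were counted by strand is not given in the sources used here. In Hnrnph1, of the same group, processed transcripts without a coding frame held 62.1% of TPM and 45.6% of reads, with Hnrnph1-212 of 816 nt in the lead at 35.6% of TPM and 17.5% of reads. Hnrnph1-212 has 0 bases outside the exons of coding transcripts. Apart from any junctions of its own, its share rests on how reads in shared exons were divided. Hnrnph2, at 84.7 and 93.5 TPM, had all of its level on coding transcripts in replicate 1, but no decay or retained-intron transcript of it was quantified. Hnrnpd, also known as AUF1 and a binder of AU-rich RNA, held 16.7% of TPM and 10.6% of reads on decay transcripts.

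Of the U2 genes, Snrpa1 and Sf3b1 stood out. Snrpa1, the U2 A′ protein, divided almost evenly between a decay and a coding transcript: Snrpa1-201 held 57.0% of TPM and Snrpa1-206 held 42.5%, with 592 and 590 reads (posterior SD 36.0 each). Snrpa1-201 skips an exon of 80 bases at chr7:66070119-66070198 (mm10, plus strand), a length that is not a multiple of the codon, and its stop codon follows in exon 6 of 8. Sf3b1 held 45.0% of TPM and 41.0% of reads on Sf3b1-203, which keeps an intron of 1813 bases at chr1:55014563-55016375 (minus strand). Within that intron lies an exon of 56 bases, chr1:55014869-55014924, that belongs to the decay transcript Sf3b1-208, which held 16.2% of TPM but 2.23% of reads. The coding transcript of Sf3b1 held 32.9% of TPM and 55.4% of reads. The weighted length of Sf3b1 was 3725 nt in replicate 1 and 4361 nt in replicate 2, and its gene read ratio was 0.27 on the log2 scale. The last 30 bases of both decay frames show where the altered splicing brings a stop, in capitals, into frame.
Snrpa1-201 stop: gactttcagaaagtgaaactcaaatttTAA
Sf3b1-208 stop: tttgcagatggcttctattctgctgctTGA
Each window spans a splice junction. In Snrpa1-201 the first 24 bases come from the exon before the skipped one and the last 6 from the exon after it, and in Sf3b1-208 the first 10 bases come from the exon before and the last 20 from the exon of its own.

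Snrpb2, the U2 B″ protein, changed place with the scale. The retained-intron transcript Snrpb2-203 of 594 nt held 65.2% of TPM and 32.6% of reads, while the coding transcript Snrpb2-201 of 2061 nt held 33.5% of TPM and 66.4% of reads. By its annotated exons Snrpb2-203 keeps 0 introns of a coding transcript whole, so retained intron is here the annotated class only. Of the Sm genes, Snrpb, Snrpe and Snrpd3 have an annotated decay or retained-intron transcript, and their coding shares of TPM were 94.7%, 97.3% and 97.3%. For Snrpd1, Snrpd2, Snrpf and Snrpg a single coding transcript was quantified, so their coding share of 100% was fixed by the annotation.

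The noncoding forms of the SR protein genes came in several kinds. In Srsf3 the decay transcript Srsf3-201 held 11.4% of TPM and 11.2% of reads and includes an exon of 456 bases at chr17:29039454-29039909 (mm10, plus strand) that no coding transcript has, and its stop codon starts at base 32 of that exon. Retained-intron transcripts held a further 38.5% of TPM and 21.8% of reads of Srsf3. Most of this lay on Srsf3-205, at 35.6% of TPM and 15.6% of reads. Its annotated exons keep 0 introns of a coding transcript whole. They hold 1257 bases outside coding exons, against a quantified length of 910 nt, so the annotated and the quantified forms differ. In Srsf11 the retained-intron share was 41.0% of TPM and 40.1% of reads, and the decay transcript Srsf11-206, with 8.92% of TPM and 3.61% of reads, has an exon of 109 bases of its own at chr3:158024123-158024231 (minus strand). Its retained-intron transcript Srsf11-208, at 22.4% of TPM, likewise keeps 0 introns of a coding transcript whole by its annotated exons. In Srsf1 the decay share was 37.4% of TPM but 8.78% of reads, all of it on Srsf1-204 of 896 nt beside coding transcripts of up to 5362 nt. Srsf2 held 15.4% of TPM and 5.24% of reads on decay transcripts and 17.9% of TPM and 19.2% of reads on retained-intron ones. The exons of Mettl23 and Mfsd11 on the opposite strand, at 54.8 and 24.3 TPM, overlap its own. The frames of 3 of these decay transcripts end as follows, with the stop codon in capitals.
Srsf3-201 stop: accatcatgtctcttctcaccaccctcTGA
Srsf11-206 stop: gctgaagttcttttccctggttcagccTGA
Srsf1-204 stop: aagagatggattaagaatgctttggatTAA
These stops lie at chr17:29039485-29039487 in exon 4 of 7, at chr3:158024209-158024211 in exon 4 of 9 and at chr11:88050013-88050015 in exon 3 of 4, so that 3, 5 and 1 junctions follow them.

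Srsf5 and Srsf10 had the lowest leading shares of the set, besides Hnrnph3. In Srsf5 the retained-intron transcript Srsf5-212 held 26.7% of TPM and the coding transcript Srsf5-201 26.5%, with 3474 and 1880 reads and posterior SDs of 57.8 and 142 reads, so that their order is not settled. All coding transcripts of Srsf5 together held 70.2% of TPM and 58.4% of reads. Srsf5-212 is longer than any coding form, at 2720 against 1568 nt, and so its share of reads, 40.5%, was larger than its share of TPM. Srsf10, an SR protein that acts as a repressor when dephosphorylated, held 68.4% of TPM on processed transcripts without a coding frame but 74.7% of reads on coding ones. Its leading transcript, Srsf10-210 of 677 nt, held 22.2% of TPM and 9.22% of reads. For Srsf7 and Srsf12 only coding transcripts were quantified, 1 and 2 in number. Their coding share of 100% was thus fixed by the annotation and is no contrast to Srsf5 and Srsf10.

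Reads were assigned to most of these genes with little ambiguity. The posterior SD of the count was under 1% of the count in both libraries for 48 of the 51 genes, and the exceptions were Snrpg, Snrpf and Sf3a2 at up to 0.0233, 0.0182 and 0.0168 of the count. Parts of their sequence nevertheless also occur in annotated transcripts of other genes. The comparison took either strand, so a gene that overlaps at the same place counts as well as a copy elsewhere. Snrpf, Hnrnpf and Sf3b4, named below, have such overlaps. Shared words, pseudogenes and exon overlaps were examined for the 51 genes alone, so these values have no share over all genes beside them. Of the 31-base words of their transcripts, a median of 6.54% also occurred in transcripts of other genes, with the highest shares in Snrpf at 92.1%, Hnrnpf at 66.2%, Sf3b4 at 51.2% and Hnrnpa1 at 50.0%. Annotated pseudogenes that hold at least 10% of a gene's words were found for 14 genes, among them 15 for Hnrnpa3 and 9 for Hnrnpa1, so the levels of these genes are uncertain by what the counting assigned to their copies. The exons of 22 of the 51 genes overlap exons of another gene. Besides those named above, Hnrnpu overlaps Cox20 at 104 TPM and Sf3a2 overlaps Plekhj1 at 41.5 TPM on the opposite strand, and Hnrnpm overlaps March2 at 81.7 TPM on the same strand.

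The partners of these genes, 71 genes in 6 lists, were nearly all detected. None of the 63 with a ratio differed 2-fold between the pools, against 4.46% of all genes, and 7 differed 1.5-fold, against 16.9%. All 22 proteins of the U1, U4/U6.U5 and minor particles reached 1 TPM in both libraries, with medians of 45.1 TPM in replicate 1 and 38.6 in replicate 2 and the highest levels in Lsm7 (143 ± 20.9 TPM, SD, n = 2) and Snrnp27 (141 ± 28.7). All 10 factors of the branch point and 3′ splice site did so too, with medians of 40.0 and 35.6 TPM, led by U2af1l4 (139 TPM in replicate 1 and 124 in replicate 2) and the SF3b subunit Phf5a (74.5 ± 1.51). Of the SR-related proteins and SR kinases 13 of 14 were detected, with medians of 56.6 and 59.9 TPM. Their highest was Srrm2, a large scaffold of nuclear speckles, at 447 and 452 TPM (449 ± 3.47), above every one of the 51 genes, followed by the kinase Clk1 (108 ± 10.1). Of hnRNPs under other symbols 8 of 9 were detected, with medians of 29.2 and 21.4 TPM, led by the poly(C)-binding proteins Pcbp1 (95.2 ± 9.81) and Pcbp2 (51.9 ± 7.84). The 5 exon junction complex genes had medians of 39.0 and 38.8 TPM, led by Magoh (75.3 ± 8.89) and Eif4a3 (72.8 ± 3.85). The 11 genes that carry out nonsense-mediated decay were all detected but lower, with medians of 8.54 and 7.49 TPM, led by Upf3a (26.8 ± 0.962) and Upf3b (24.8 ± 3.21).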

How the data were processed

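The 2 RNA libraries form 1 group. Each has a gene table in which the authors deposited an expected count per gene, which is not normalized, together with TPM and FPKM, both scaled to depth and length with spike-ins included, and a posterior standard deviation of each count, a score of assignment. For replicate 1 a deposited table of transcripts was read as well, whose percent column holds the part of a gene's TPM on each transcript. The deposited tables also give a length, which for genes was the share-weighted mean of transcript lengths within 1% in all 6895 genes tested. Per the text files deposited beside the tables, they rest on mm10 and the M4 gene annotation. Which aligner and quantifier were run, and whether strand was used, is not given in the sources.

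Symbols, transcript classes, coordinates and sequences came from GENCODE M21 on the same build, and 42462 of 43346 genes and 101510 of 103639 transcripts matched, among them all but 1 of the 272 transcripts of the 51 genes. Identifiers were matched without version, so the M21 form of a transcript can differ from the M4 form that was quantified, as for Srsf3-205. How many differ was not examined. Rounded counts were scaled with edgeR 4.0.16 under R 4.3.3 by TMM, and DESeq2 1.42.0 size factors, total counts, spike-in totals, pseudocounts, minimum levels, FPKM, posterior means and read shares were alternatives. The remaining steps ran on scipy 1.17.1, numpy 2.4.6 and pandas 2.3.3 under Python 3.11.15. The ratio step was tested on simulated data. Intervals cover counting error only, since reads carry no molecular identifiers, and depth was 24171434 and 27946180 estimated reads.

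The genes and lists were chosen with earlier results of these data known. Named were the 3 highest and 3 lowest of each family, genes past 2-fold, genes with a noncoding leading transcript, the 5 highest decay and retained-intron shares, the 3 lowest and highest leading shares, the 3 least certain counts and the 2 highest of each list; other names were chosen after their values were seen.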

Additional observations from a re-analysis of the deposited data

How the results depend on the processing

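Of 88 values that answer a comparison, recomputed under other settings, 71 stayed within the spread or within 1.5 times the count and 17 moved. Of 42 coding shares of single genes 13 moved, most of them by read share. In FPKM the family medians were 55.9 for Srsf, 45.9 for Hnrnp, 26.5 for Sf3, 60.3 for Snrp and 50.5 for all 51 genes, and with TPM rescaled to genes alone they were 62.0 for Hnrnp, 35.9 for Sf3, 81.5 for Snrp and 68.3 for all. Genes past 1.5-fold numbered 1 with total counts, 1 with a pseudocount of 0.1 and 17 with spike-in totals, settings examined at this fold after the data were seen. Spike-in totals also moved the median log2 ratio to 0.46 and put 4 partner genes past 2-fold, while none of the 51 genes passed 2-fold under any setting. By read share 4 genes in place of 8 had a noncoding lead, and 3 in place of 6 held at least 50% on decay and retained-intron transcripts; 5 in place of 9 held at least 10% on decay ones, a count added after the data were seen. With either library alone 51 genes reached 1 TPM and 46 reached 10 TPM. No paired analysis was possible because there was 1 group. Transcript shares rest on 1 library, short transcripts rest on few reads, and with 2 libraries neither the donor nor a batch could be examined.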

Other observations

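Among the partners of the splicing factor genes 55 reached 10 TPM in replicate 1, and a noncoding transcript led in 6 of them, or 10.9%, against 12.5% of protein-coding genes, and in 5 by reads, against 6.68%. Those named here were chosen after their values were seen. Clk1, a kinase that phosphorylates SR proteins, stood at 115 and 101 TPM in replicates 1 and 2, yet coding transcripts held 3.07% of its TPM and 3.74% of its reads in replicate 1. The decay transcript Clk1-210 held 38.5% of its TPM and 44.4% of its reads, and retained-intron transcripts 37.5% and 43.5%. In its relatives the retained-intron share was 38.4% of TPM and 30.2% of reads in Clk4, in which a coding transcript led. The decay transcript Clk2-204 held 76.8% of TPM and 75.4% of reads in Clk2, a gene at 8.96 TPM and so not among the 55. In the other SR kinase family, retained-intron transcripts held 45.0% of TPM but 14.3% of reads in Srpk1, led by a coding transcript. Clk3 and Srpk2 each had all TPM on a single coding transcript. Whether the annotation fixed this was not examined, so they are no contrast to their relatives. Prpf31, a U4/U6 protein, held 78.7% of TPM on the retained-intron transcript Prpf31-205, although its coding share was 41.0% by reads. Decay transcripts held 49.1% of TPM and 47.6% of reads in Rbmx, and 25.8% of TPM and 17.0% of reads in Tra2b, in which a coding transcript led. Ptbp2, the paralog typical of neurons, stood at 46.4 and 44.1 TPM in replicates 1 and 2, and Ptbp1, typical of other cells, had 0.61 and 1.61 TPM.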
